A study of Mus musculus with 6 samples.

Results

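The enzymes of glycolysis, the pentose phosphate pathway, pyruvate entry and the tricarboxylic acid (TCA) cycle were followed as 38 named genes, of which 16 encode glycolytic enzymes, 6 enzymes of the pentose phosphate pathway and 16 proteins of pyruvate entry and the TCA cycle. They were matched by gene symbol among the 54532 genes of the count table. Aldoa matched more than 1 row, and the second of these (ENSMUSG00000114515), with 4 to 9 reads per library, was left out by the filter on low counts, so each of the 38 names was tested once among 13175 genes. RNA sequencing had been done on mouse bone-marrow-derived macrophages exposed to monosodium urate (MSU), the crystal of gout. Of 6 libraries, 3 are labelled Tet2 knockout and 3 wild-type, and since each had been given MSU, only the genotype labels are compared, within the treated state. The strain, age and sex of the mice, the knockout allele, and the dose and time of MSU are not given in the labels. Whether replicates are separate animals or cultures is not stated either, so the p-values reflect only the spread among these libraries, which could be technical.

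Glycolysis splits glucose into pyruvate in the cytosol, and lactate dehydrogenase can turn that pyruvate into lactate. The pentose phosphate pathway branches off after the hexokinase step and yields NADPH, the electron donor of the NADPH oxidase, and ribose for nucleotides. Pyruvate that enters mitochondria is made into acetyl-CoA by the pyruvate dehydrogenase complex or into oxaloacetate by pyruvate carboxylase, and both feed the TCA cycle. Macrophages are known to raise glucose use when activated, and several glycolytic genes are known targets of the hypoxia-inducible factor HIF-1.

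Total counts ran from 11997104 to 14481843 per library, and levels below are counts scaled to library size (CPM). The share of reads from mitochondrial genes was 0.349% to 0.366% under the knockout label and 0.240% to 0.275% under the wild-type label, groups that did not overlap, and its part in the results was not tested. Libraries of a group correlated with Pearson r from 0.9961 to 0.9968 across genes on the log scale, and libraries of different groups with r from 0.9879 to 0.9892. The shallowest library, wild-type replicate 2, was set off from its group on the second principal component (13.0 against -7.09 and -6.50). Tet2 itself passed as higher under the knockout label (log2 change 0.20, edgeR adjusted p = 0.01588): the knockout-labelled libraries held 467, 482 and 450 reads of it and the wild-type libraries 413, 338 and 427. Directions are therefore those of the libraries labelled knockout relative to the libraries labelled wild-type. All 10 macrophage markers were measured, among them Csf1r, the receptor for macrophage growth factor, and their summed level was 7234 to 7500 CPM under the knockout label and 7063 to 7463 CPM under the wild-type label. By gene they did not stay level: 4 of the 10 rose and 4 fell, and 9 had no overlap between groups. Of all tested genes 21.6% were called higher and 19.2% lower, and 47.8% had no overlap in either direction. Among the markers that rose were Csf1r (log2 change 0.55) and Adgre1, which encodes F4/80 (0.78), and Lyz2, a lysozyme, was among those that fell (-0.47). The 10 connective tissue markers were measured too, at 7085 to 7265 CPM under the knockout label and 7587 to 8100 CPM under the wild-type label, groups that did not overlap. By gene, 6 of these 10 fell and 1 rose, beside 19.2% lower and 21.6% higher over all tested genes. Col1a1, a collagen gene, stood at 3195 and 3452 CPM, above any macrophage marker on the list. The part of the connective tissue markers in the results was not tested. Neutrophil markers summed to at most 6.18 CPM in any library, and lymphocyte markers to 11.9 to 13.7 CPM under the knockout label and 3.80 to 4.10 CPM under the wild-type label, nearly all of it Cd4 (11.8 and 3.48 CPM). Ly6g and Retnlg of 12 neutrophil markers, Cd3g and Nkg7 of 12 lymphocyte markers, Siglech and Cd209a of 8 dendritic cell markers, and 6 of 9 erythroid and mast cell markers were at 0 in every library. The dendritic cell list summed to 338.9 to 355.4 CPM under the knockout label and 372.6 to 394.8 CPM under the wild-type label, which did not overlap. Bst2, an interferon-induced gene not limited to these cells, made up nearly all of it (342 and 378 CPM) and fell by 0.14 on the log2 scale, while Xcr1 rose from 1.71 to 3.60 CPM.

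Where members move together, the letters of their promoters are of use to a reader, and those of 4 genes are printed because Hk2, Hk3 and Pdk1 were among the larger rises while Ldha, a textbook HIF-1 target, did not pass the test. These 4 were chosen after their values had been seen, and not by size alone. Aldoc and Pcx, which rose more than any of them, and G6pdx, which rose about as much as Hk2 and Hk3, are not printed. Each run covers the 250 bases before a RefSeq start site (GRCm38.p6, the build also called mm10), 5′ to 3′ on the strand of the gene, and capitals mark the core letters bound by HIF-1, which are ACGTG or GCGTG on either strand, so that CACGT and CACGC were marked as well. The windows are chr6:82774455-82774704 (minus strand) for Hk2, chr13:55021386-55021635 (minus strand) for Hk3, chr2:71872974-71873223 (plus strand) for Pdk1 and chr7:46845554-46845803 (plus strand) for Ldha.
Hk2: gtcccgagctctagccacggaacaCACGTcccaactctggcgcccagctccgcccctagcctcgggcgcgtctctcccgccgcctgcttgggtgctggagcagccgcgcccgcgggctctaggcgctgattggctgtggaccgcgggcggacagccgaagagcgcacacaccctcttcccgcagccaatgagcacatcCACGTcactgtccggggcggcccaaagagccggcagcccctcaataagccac
Hk3: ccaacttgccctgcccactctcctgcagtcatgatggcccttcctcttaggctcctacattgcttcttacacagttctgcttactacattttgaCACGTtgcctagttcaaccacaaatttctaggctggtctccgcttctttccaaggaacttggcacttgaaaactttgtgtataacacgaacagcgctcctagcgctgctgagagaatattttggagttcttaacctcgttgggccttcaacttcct
Pdk1: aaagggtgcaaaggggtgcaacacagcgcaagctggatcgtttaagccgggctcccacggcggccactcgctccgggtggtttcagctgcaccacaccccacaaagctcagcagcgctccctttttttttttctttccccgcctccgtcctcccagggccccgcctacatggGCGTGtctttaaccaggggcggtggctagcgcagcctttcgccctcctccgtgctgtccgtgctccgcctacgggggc
Ldha: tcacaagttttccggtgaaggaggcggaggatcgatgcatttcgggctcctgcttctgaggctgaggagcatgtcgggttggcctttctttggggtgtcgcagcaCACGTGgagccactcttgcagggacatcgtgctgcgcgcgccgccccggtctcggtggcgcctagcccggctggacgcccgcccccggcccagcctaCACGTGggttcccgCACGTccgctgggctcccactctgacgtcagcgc

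The core was found 2 times before Hk2, 1 time before Hk3, 1 time before Pdk1 and 5 times before Ldha, where 2 runs of CACGTG each hold the core on both strands. A promoter window was given for 37 members (Idh3a had none), and 26 of these (70.3%) held the core at least once, against 38.6% of all 32817 windows and 55.4% of the 12513 windows of tested genes. Among members that rose it stood in 17 of 23 windows, and among members that did not pass in 9 of 14, while of the 2855 windows of all genes called higher 51.6% held it. For 11 members RefSeq gave several windows, of which the one nearest to the deposited gene start was read (for Ldha 4329 bases from it), and 29 of the 37 held the core in at least 1 of their windows. A match is a description of letters, not a site.

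The glycolytic members, a list chosen with earlier results of these data known, were mostly higher in the libraries labelled knockout. Of 16 members 13 passed the test as higher and none as lower (edgeR adjusted p under 0.05 over all genes tested), where 21.6% of all tested genes were called higher and 19.2% lower. The median log2 change of the 16 genes was 0.20, against -0.003 over all genes tested, and the median is a description of the list with no test of its own. In 13 of the 16 genes all knockout-labelled libraries lay above all wild-type ones, as was so for 24.8% of tested genes (47.8% had no overlap in either direction). Changes were small for most members, between 0.10 and 0.43 on the log2 scale in 12 of the 13, and Aldoc reached 0.90. The summed level of the glycolytic genes was 14110 ± 57.8 CPM under the knockout label and 12820 ± 167 CPM under the wild-type one (n = 3 each, SD), 10.1% more. Calls are more frequent among abundant genes: of 2294 genes with a mean of at least 100 CPM, 42.2% were called higher and 25.7% lower, and of the 14 glycolytic members at that level 11 were called higher. Among 16 further glycolytic genes tested, given below, 4 were higher and 1 lower. In bulk samples, more cells of a type and more RNA per cell cannot be told apart.

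**Figure D1:**
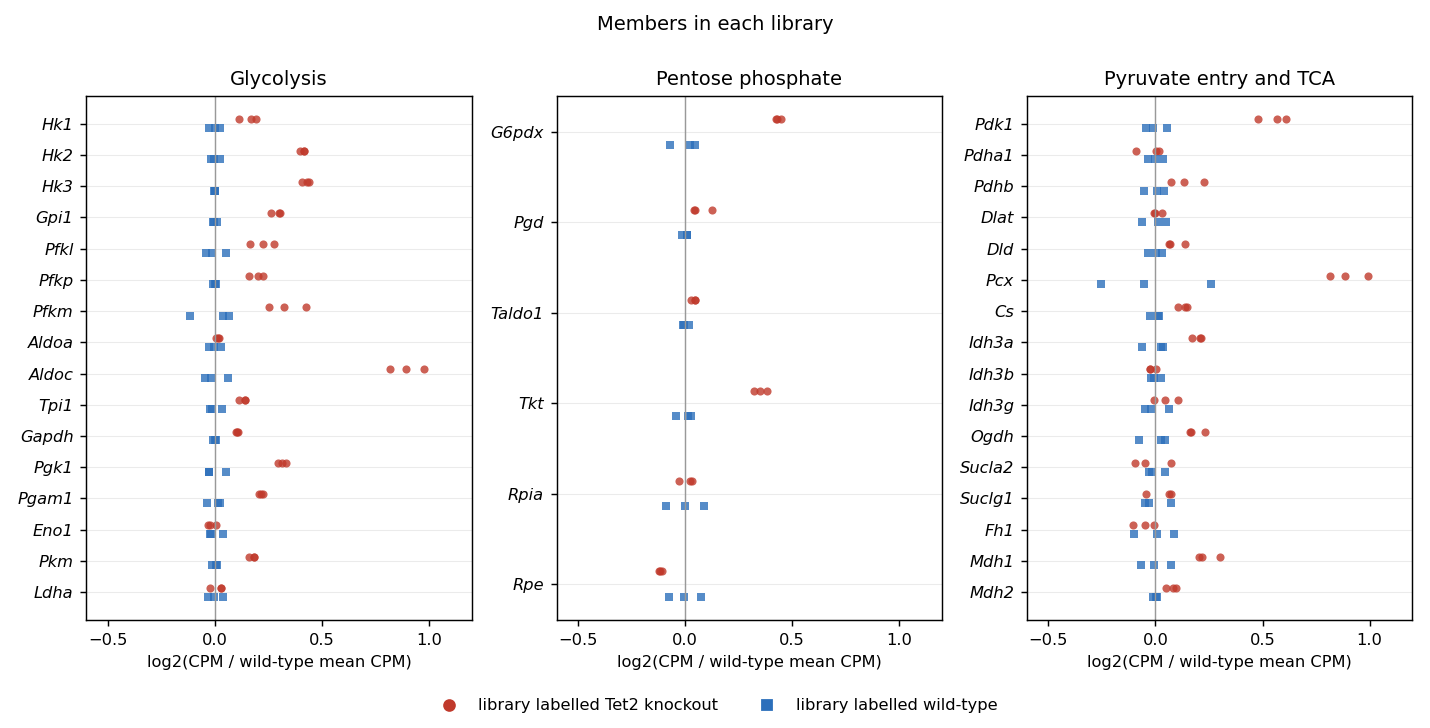
Level of each member in each of the 6 libraries, as log2 of its CPM over the mean CPM of the 3 wild-type libraries (horizontal axis), in 3 panels for glycolysis, the pentose phosphate pathway, and pyruvate entry with the TCA cycle; circles are libraries labelled knockout and squares libraries labelled wild-type. All circles lie to the right of all squares for 13 of 16 glycolytic genes, 4 of 6 pentose phosphate genes and 9 of 16 genes of pyruvate entry and the TCA cycle. The same held for 24.8% of all tested genes. Aldoa, Eno1 and Ldha overlap.

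Hexokinases carry out the step that traps glucose in the cell, and all 3 isozymes rose. Hk3 (ENSMUSG00000025877, chr13:55005985-55021385) stood at 806, 818 and 825 CPM under the knockout label and at 607, 608 and 608 CPM under the wild-type label. The log2 change was 0.43 (SE 0.02; edgeR adjusted p = 1.093e-30). The groups were far apart for their spread, and the wild-type libraries were nearly equal. Hk2 (ENSMUSG00000000628, chr6:82725025-82774454) is an isozyme that binds mitochondria and is induced in many activated cells. It stood at 195, 198 and 198 CPM against 151, 147 and 148 CPM, a log2 change of 0.41 (SE 0.03). Hk1, the isozyme found in most tissues, stood at 217, 208 and 219.9 CPM against 189, 192 and 196 CPM, a log2 change of 0.16 (SE 0.03). The 95% interval of the change was 0.09 to 0.22 for Hk1 and 0.38 to 0.47 for Hk3, and the difference between the isozymes was not tested.

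Per kilobase of deposited gene length, Hk3 was the leading hexokinase, at 222 ± 2.52 RPKM under the knockout label and 165 ± 0.202 RPKM under the wild-type label. RPKM is CPM per kilobase, given with the SD (n = 3). The deposited length need not be that of the transcript present, so levels and shares compared between isozymes or subunits are approximate. Hk2 stood at 33.0 ± 0.276 and 24.9 ± 0.35 RPKM and Hk1 at 25.2 ± 0.73 and 22.6 ± 0.39 RPKM. The 3 together came to 279.9 RPKM under the knockout label and 212 RPKM under the wild-type label, a ratio of 1.32. The share of Hk1 in that sum was 9.17%, 8.72% and 9.11% under the knockout label and 10.4%, 10.6% and 10.8% under the wild-type label. The share of Hk3 was 79.2% ± 0.206 against 77.7% ± 0.119. The groups did not overlap in either share, while the shares of Hk2 did.

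**Figure D2:**
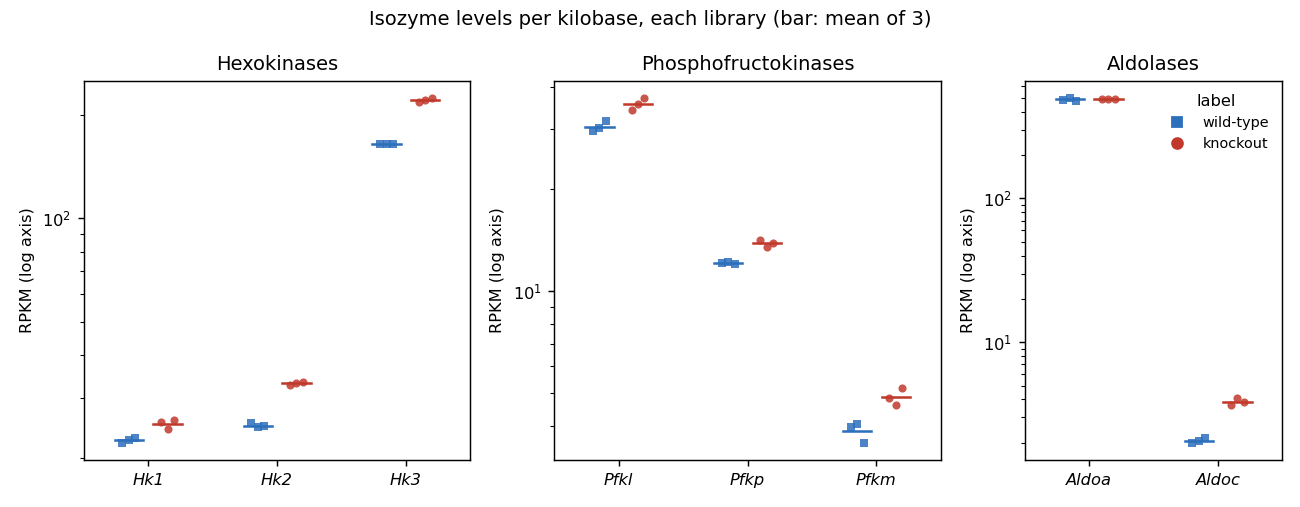
Level of the hexokinase, phosphofructokinase and aldolase isozymes in RPKM on a log axis, with 1 point per library (squares wild-type, circles knockout label) and a bar at the mean of 3. Hk3 is the highest hexokinase in both groups, and Aldoc lies far below Aldoa although it changed the most.

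Phosphofructokinase catalyses the committed step of glycolysis, and its liver (Pfkl), platelet (Pfkp) and muscle (Pfkm) isozymes rose together. Pfkl stood at 229, 238 and 248 CPM under the knockout label and at 198, 202 and 212 CPM under the wild-type label, a log2 change of 0.22 (SE 0.03). Pfkp stood at 189, 181 and 186 CPM against 162, 163 and 161 CPM, a log2 change of 0.19 (SE 0.03). Pfkm was far lower, at 16.1, 15.4 and 17.3 CPM against 13.3, 13.5 and 11.9 CPM, a log2 change of 0.34 (SE 0.10; edgeR adjusted p = 0.0041285). None of the 3 overlapped between groups, where 47.8% of all tested genes had no overlap in either direction. Pfkl made up 65.6% ± 1.03 of phosphofructokinase RPKM under the knockout label and 65.7% ± 1.21 under the wild-type label, a difference smaller than the spread. Pfkm made up 8.96% ± 0.345 and 8.32% ± 0.664, and in the share of each of the 3 isozymes libraries of the groups overlapped. Pfkm lies against Senp1 on the other strand, which had 212% of the mean count of Pfkm and was lower (log2 change -0.17), and with counts that do not use strand, reads where the genes overlap cannot be told apart. The call of Pfkm was lost with DESeq2 (adjusted p = 0.0555), and its range over all alternatives was 0.0038 to 0.108.

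Aldolase cleaves the 6-carbon sugar, and of its isozymes Aldoc rose while Aldoa did not pass. Aldoa (ENSMUSG00000030695), the main form, stood at 1420.1, 1432 and 1434 CPM under the knockout label and at 1414, 1443 and 1390.2 CPM under the wild-type label. These groups overlapped, with a log2 difference of 0.01 (95% interval -0.03 to 0.06; edgeR adjusted p = 0.674). Aldoc (ENSMUSG00000017390, chr11:78322968-78327781), best known from brain, stood at 11.9, 13.3 and 12.6 CPM against 6.54, 6.68 and 7.05 CPM. That is a log2 change of 0.90 (SE 0.12; edgeR adjusted p = 8.2225e-10), or 1.86-fold, the largest among the 38 genes, though that of Pcx (0.89, given below) was within its error. Its share of aldolase RPKM was small in both groups, 0.780% ± 0.0387 against 0.424% ± 0.0226 (SD, n = 3 each), so the summed aldolase level changed by a ratio of only 1.01.

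In the steps from glucose 6-phosphate to pyruvate, Gpi1, the isomerase that makes fructose 6-phosphate, rose to 465 ± 7.90 CPM from 380.4 ± 2.38 CPM (SD, n = 3 each), by 0.29 on the log2 scale. Pgk1 (ENSMUSG00000062070, chrX:106187100-106203699), the first ATP-making kinase of the pathway, stood at 1322, 1355 and 1338 CPM under the knockout label and at 1058, 1119 and 1056 CPM under the wild-type label (log2 change 0.31, SE 0.02). Pkm, which makes pyruvate and was the member with the highest CPM, stood at 2808, 2859 and 2859 CPM against 2493, 2530.4 and 2521 CPM (log2 change 0.18, SE 0.02). In each of these genes all libraries labelled knockout lay above all libraries labelled wild-type. Pgam1, the mutase, rose by 0.22, Tpi1, triose phosphate isomerase, by 0.13, and Gapdh, glyceraldehyde 3-phosphate dehydrogenase, by 0.10 on the log2 scale. Gapdh is often taken as a reference gene, and it went from 1957 ± 9.40 to 2104 ± 7.22 CPM, a ratio of 1.08.

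Eno1 and Ldha did not pass the test. Eno1 (enolase) stood at 1515, 1524 and 1556 CPM under the knockout label and at 1532, 1589 and 1524 CPM under the wild-type label (log2 difference -0.02, 95% interval -0.06 to 0.03; edgeR adjusted p = 0.623). Ldha (ENSMUSG00000063229, chr7:46841475-46855627), which makes lactate, stood at 1614, 1612 and 1558 CPM against 1545, 1622 and 1576 CPM (log2 difference 0.01, 95% interval -0.03 to 0.06; edgeR adjusted p = 0.692). With Aldoa these were the 3 glycolytic members left uncalled. All 3 had intervals that end below the change of Pgk1, which was of like abundance.

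**Figure D3:**
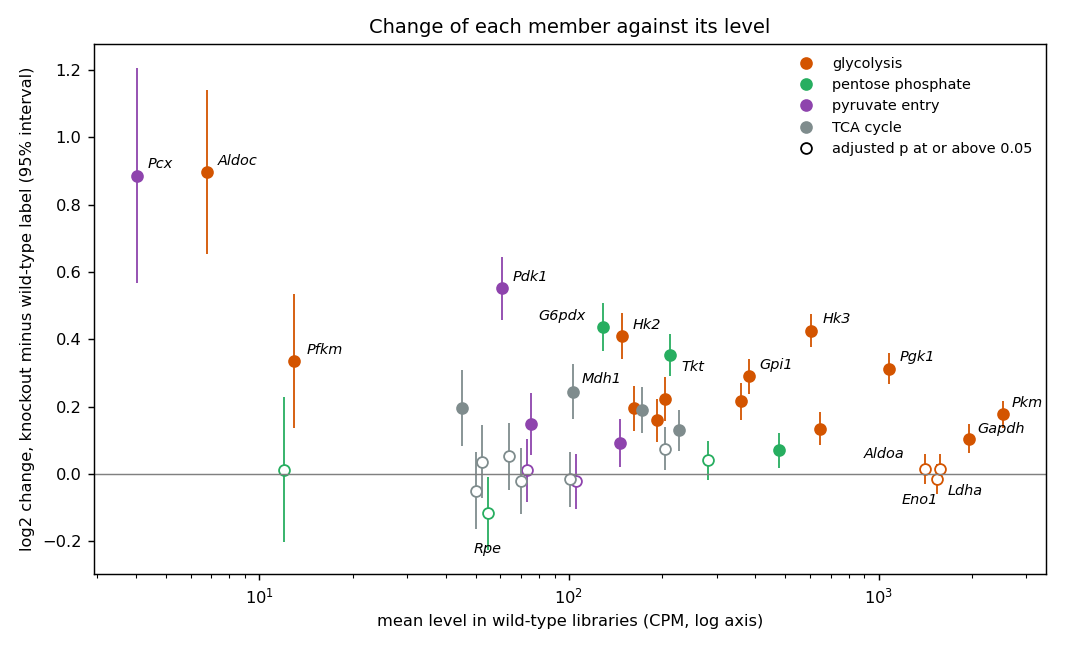
Log2 change of each of the 38 members (knockout minus wild-type label, vertical axis, with 95% interval) against its mean level in the wild-type libraries (CPM, log axis); filled points passed an edgeR adjusted p of 0.05 and open points did not. Aldoa, Eno1 and Ldha sit near 0 between 1415 and 1581 CPM, while Pgk1 at 1078 and Pkm at 2515 CPM lie above it.

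The calls on the smaller glycolytic changes depend on how little replicates varied (edgeR's common coefficient of variation was 2.63%). If 0.1 is assumed in its place, 3 glycolytic members passed (Hk2, Hk3 and Aldoc), and of all 38 members 7 passed, where 14.3% of all tested genes did. Pgk1 then had an adjusted p of 0.0555 and Gpi1 one of 0.0863.

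In the pentose phosphate pathway 3 of 6 members rose and none fell, with a median log2 change of 0.05, beside 21.6% of all tested genes higher and 19.2% lower. The 3 are unlike in size. G6pdx (ENSMUSG00000031400, chrX:74409483-74429194), which encodes the enzyme that commits glucose 6-phosphate to the pathway and makes NADPH, stood at 176, 174 and 174 CPM under the knockout label and at 123, 131 and 133 CPM under the wild-type label. The log2 change was 0.44 (SE 0.04; edgeR adjusted p = 6.9813e-20), and the groups lay well apart. Tkt (ENSMUSG00000021957, chr14:30548359-30574720), the transketolase that links the pathway back to glycolysis, stood at 266, 277 and 271 CPM against 214, 217 and 206 CPM (log2 change 0.35, SE 0.03). Pgd, which makes the pathway's other NADPH, rose by only 0.07 (SE 0.03; edgeR adjusted p = 0.02526).

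Taldo1, the transaldolase, had 289.6 ± 2.08 against 281.8 ± 2.80 CPM, groups that did not overlap but did not pass (log2 difference 0.04; edgeR adjusted p = 0.288). Rpia, the ribose isomerase, was level at 12.1 ± 0.259 and 12.0 ± 0.747 CPM, with an interval of the log2 difference from -0.20 to 0.23. Rpe, the epimerase, was the 1 gene of the 38 whose libraries labelled knockout all lay below the others, at 50.7, 50.5 and 50.3 CPM against 54.6, 52.0 and 57.7 CPM. Its log2 difference of -0.12 did not pass (edgeR adjusted p = 0.0777), but it passed without wild-type replicate 2 (edgeR adjusted p = 0.0213) and with upper-quartile scaling (0.0359), in a range up to 0.621 over all alternatives. The call of Pgd was lost under 7 of 15 alternatives, with adjusted p from 0.0216 to 0.774, among them those without knockout replicate 3 (0.266), wild-type replicate 1 (0.0588) and wild-type replicate 3 (0.0581). G6pdx lies against Ikbkg on the other strand, which had 72.8% of its mean count and did not pass (log2 difference 0.09; edgeR adjusted p = 0.071).

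At the entry of pyruvate into mitochondria 4 of 6 members rose (21.6% of all tested genes did), and the larger changes were in a kinase and a carboxylase rather than in the subunits of the dehydrogenase. Pdk1 (ENSMUSG00000006494, chr2:71873224-71903858), which inhibits pyruvate dehydrogenase by phosphorylation, stood at 84.5, 89.8 and 92.5 CPM under the knockout label and at 62.9, 58.8 and 60.1 CPM under the wild-type label. The log2 change was 0.55 (SE 0.05; edgeR adjusted p = 8.7706e-19), or 1.47-fold. Pcx (ENSMUSG00000024892, chr19:4510472-4621752), pyruvate carboxylase, was the scarcest member and stood at 7.44, 7.10 and 8.02 CPM against 4.83, 3.38 and 3.88 CPM. Its log2 change was 0.89 (SE 0.16; edgeR adjusted p = 2.0597e-06), from raw counts of 106, 100 and 106 against 68, 41 and 54. The groups did not overlap in either gene. Lrfn4, on the other strand within Pcx, had 188% of its mean count and did not pass (log2 difference -0.28).

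Of the dehydrogenase itself, the subunit gene Pdhb rose by 0.15 (SE 0.05). Its partner subunit gene Pdha1 did not pass, at 103.9 ± 4.23 against 105.6 ± 2.40 CPM (log2 difference -0.02, 95% interval -0.10 to 0.06). Dlat, the acetyl-transferring subunit, was level (log2 difference 0.01, 95% interval -0.08 to 0.10). Dld, a subunit shared with the oxoglutarate dehydrogenase complex, rose by 0.09 (SE 0.04; edgeR adjusted p = 0.033776). The call of Pdhb held under 11 of 15 alternatives, with adjusted p from 0.00363 to 0.498. It was lost with DESeq2 (adjusted p = 0.0793), and without knockout replicate 2 (edgeR adjusted p = 0.123) or wild-type replicate 1 (0.0706). The call of Dld held under 9 of 15, with adjusted p from 0.0303 to 0.699. It was lost with DESeq2 (adjusted p = 0.162), upper-quartile scaling (edgeR adjusted p = 0.108) and no filter on low counts (0.0818). Leaving out knockout replicate 3 (edgeR adjusted p = 0.195) or wild-type replicate 1 (0.181) also lost it. Both calls were lost at an assumed spread of 0.1.

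In the TCA cycle list, which includes Mdh1 of the cytosol, 4 of 10 members rose and none fell (21.6% and 19.2% of all tested genes did). The rises ran from 0.13 to 0.24 on the log2 scale, the largest that of Mdh1, and the median of the 10 was 0.06. With pyruvate entry that makes 8 of 16 higher, and over all 38 members 24 higher and 0 lower by edgeR. By DESeq2 and limma-voom 20 and 24 members were higher and none lower. These methods called 28.1% and 40.1% of the genes they tested, in either direction. Rpe passed as lower under the alternatives given above. At an assumed spread of 0.1 none of the TCA members passed, and Pdk1 and Pcx were those of the 16 that did. Of the 24 members of any class with a mean of at least 100 CPM 18 were called higher, beside the 42.2% of all genes at that level.

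Cs, citrate synthase, which starts the cycle, stood at 251, 243 and 249 CPM under the knockout label and at 222, 228 and 229 CPM under the wild-type label (log2 change 0.13, SE 0.03). Ogdh, which encodes the first subunit of the oxoglutarate dehydrogenase complex, stood at 203, 193 and 194 CPM against 164, 176 and 178 CPM (log2 change 0.19, SE 0.03). Mdh1, the malate dehydrogenase of the cytosol, had the largest rise of the 10, with 121 ± 4.54 against 103 ± 4.98 CPM (log2 change 0.24, SE 0.04). The mitochondrial form Mdh2 had 215 ± 3.69 CPM under the knockout label against 204 ± 1.34 CPM, and its log2 difference of 0.07 lay just outside the threshold (edgeR adjusted p = 0.05016). It passed as higher without knockout replicate 1 (edgeR adjusted p = 0.0482), with protein-coding genes only (0.0447) and with a filter of 1 CPM in 3 libraries (0.0454), in a range up to 0.762 over all alternatives.

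NAD-dependent isocitrate dehydrogenase is built from catalytic and regulatory subunits, of which Idh3a, the catalytic one, rose. It stood at 50.6, 52.1 and 52.2 CPM under the knockout label and at 45.8, 43.1 and 46.1 CPM under the wild-type label (log2 change 0.20, SE 0.06; edgeR adjusted p = 0.0031707). Idh3b and Idh3g overlapped between groups, with log2 differences of -0.02 and 0.05. Of the summed RPKM of the 3 subunits, Idh3a made up 15.8%, 15.9% and 16.2% under the knockout label. Under the wild-type label it made up 14.8%, 13.6% and 14.6%, shares that did not overlap. Nop56, on the other strand beside Idh3b, had 91.9% of its mean count and was lower (log2 change -0.31). Sucla2 and Suclg1, subunits of succinyl-CoA ligase, and Fh1, fumarase, did not pass, with log2 differences of -0.02, 0.04 and -0.05.

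Other genes of the same pathways were read from lists that do not share genes with the 38, and their counts stand beside 21.6% higher and 19.2% lower over all tested genes. Transporters of glucose, lactate and glucose 6-phosphate changed in most cases, with 8 of 12 tested genes higher and 2 lower and a median log2 change of 0.22. Slc37a2, which moves sugar phosphate across the endoplasmic reticulum membrane, rose from 233 ± 6.13 to 340.2 ± 1.06 CPM, and Slc16a6, a monocarboxylate transporter, by 0.50 (log2). Lower were Slc16a1, the monocarboxylate transporter MCT1 (log2 change -0.35), and Bsg, the chaperone that brings it to the membrane, from 487 ± 11.1 to 385 ± 1.06 CPM. Of 16 further glycolytic genes 4 rose (25%, near the share of all genes) and 1 fell. Pfkfb4, which sets the level of the activator of phosphofructokinase, rose by 0.30 and Eno2, another enolase, by 0.29, while Pgm2 rose by 0.18, the scarce Ldhd by 0.87, and Pgam5, a mitochondrial phosphatase named for its likeness to the mutases, fell (log2 change -0.38).

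Of 6 further pentose phosphate genes 2 rose, H6pd, the form of the first enzyme in the endoplasmic reticulum, by 0.16 and Prps2, which makes the precursor of nucleotides from ribose phosphate, by 0.21. At pyruvate entry 2 of 15 further genes rose and 2 fell. Pdk4, another kinase of pyruvate dehydrogenase, moved against Pdk1, with 2.12 ± 0.176 CPM under the knockout label against 5.21 ± 1.31 CPM (log2 change of -1.29, SE 0.21, edgeR adjusted p = 1.9469e-07), and Pdk2 and Pdk3 did not pass. Pck2, the mitochondrial enzyme that makes phosphoenolpyruvate, rose by 0.30, and of the malic enzymes Me1 fell (log2 change -0.27) and Me2 rose by 0.14. Of 24 further genes of the TCA cycle, its carriers and its side reactions 12 rose and 4 fell, with a median log2 change of 0.12. Acod1, which draws aconitate off to itaconate, rose by 1.22, the dicarboxylate carrier Slc25a10 by 0.60 and the aspartate-glutamate carrier Slc25a12 by 0.54, whereas Got1, a transaminase (log2 change -0.22), Sdhaf2, an assembly factor of succinate dehydrogenase (-0.18), and Dlst, a subunit of the oxoglutarate dehydrogenase complex (-0.16), were among those that fell.

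**Figure D4:**
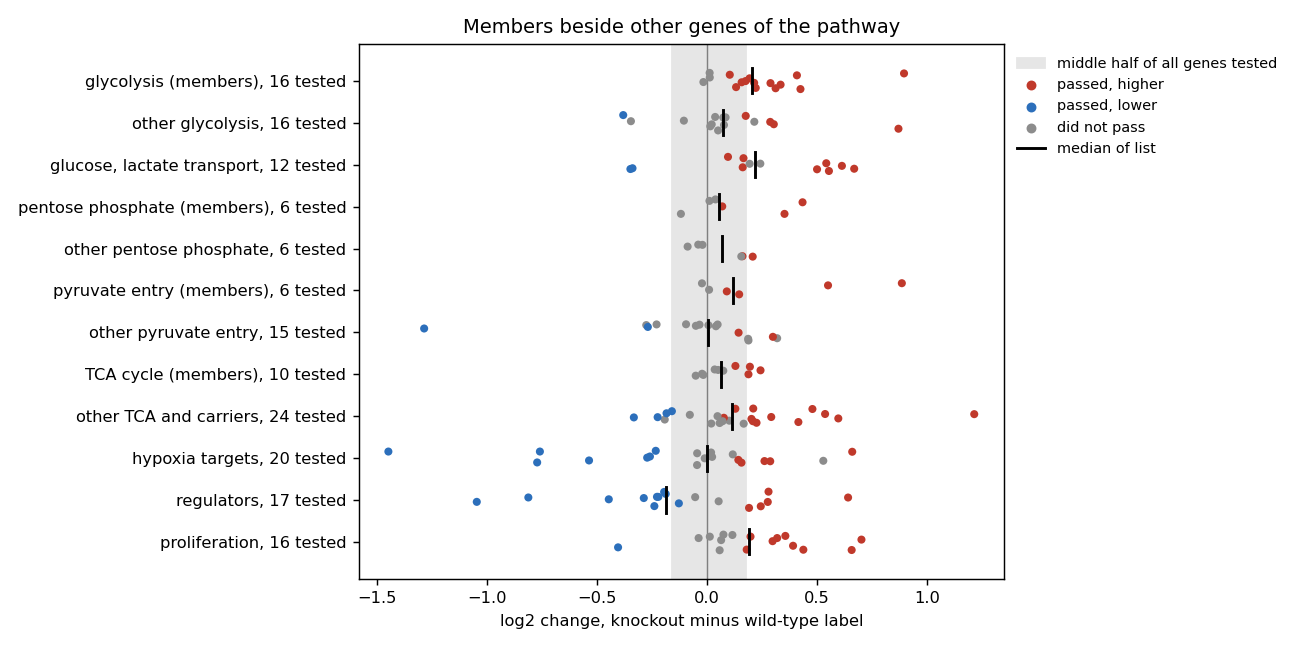
Log2 change (knockout minus wild-type label) of every tested gene in 12 lists, with 1 point per gene coloured by whether it passed an edgeR adjusted p of 0.05, a black bar at each list's median, and a grey band from -0.16 to 0.18 that holds the middle part, between quartiles, of all 13175 genes. Medians of glycolysis (0.20), transport (0.22) and proliferation (0.19) lie above the band. That of regulators (-0.19) lies below it, and that of hypoxia targets lies at 0.003.

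Of 20 hypoxia targets outside these pathways 5 were higher (25%, near the 21.6% of all tested genes) and 7 lower (35%, beside 19.2%), with a median log2 change of 0.003. P4ha1, a prolyl hydroxylase of collagen, rose from 327 ± 3.38 to 393 ± 5.76 CPM and Nos2, inducible nitric oxide synthase, by 0.66; Egln3, Ero1l and Ddit4 were the others that rose. Hilpda, of lipid droplets, fell by 1.45 and Mxi1, a partner of Max, by 0.76 on the log2 scale. Of 17 tested regulators of these pathways 5 rose (29.4%) and 10 fell (58.8%), with a median of -0.19. Hif1a, the oxygen-regulated subunit of HIF-1, went from 290.4 to 255 CPM (log2 change -0.19), Txnip, which limits glucose uptake, fell by 0.81 and Nfe2l2, which drives antioxidant and pentose phosphate genes, by 0.29, and Keap1, which marks the product of Nfe2l2 for breakdown, rose by 0.28. The other 4 that rose were Myc, Mlxip, Ppargc1b and Esrra.

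Genes of proliferation were also mostly higher in the libraries labelled knockout. Of 16 such genes 9 rose (56.2%, beside 21.6% of all tested genes) and 1, Rrm2 (log2 change -0.40), fell, and their summed level was 1219 to 1235 CPM under the knockout label and 995 to 999 CPM under the wild-type label. Mki67, a mark of cycling cells, rose from 101 ± 6.41 to 165 ± 3.07 CPM, and Mcm6, a replication helicase subunit, and Pcna, the replication clamp, rose by 0.44 and 0.32. The part of proliferation, and that of the connective tissue markers above, in the rise of the metabolic genes was not tested.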

How the data were processed

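Whole-number read counts per gene, as deposited by the authors, were used for all 6 libraries. Per the submitters' processing notes fastp, STAR, featureCounts and mm10 were used, without versions; per the labels' protocols libraries came from an RNeasy Plus column and the NEBNext Ultra kit. No source used here gives the strand setting, so reads of overlapping genes, and those shared with near-identical copies, are uncertain. Groups are the genotype labels. With edgeR 4.0.16 (R 4.3.3), 13175 of 54532 genes that met filterByExpr (minimum count 10) were scaled by TMM and compared by the robust quasi-likelihood test over all 6 libraries, Benjamini-Hochberg adjusted over all genes tested at a threshold of 0.05. SE is the log2 change over the square root of F. RPKM divides scaled CPM by the deposited gene length. Alternatives used limma 3.58.1 and DESeq2 1.42.0. The test was tried on simulated counts, but the outcome is not given here and is not used to back the p-values. An exact test of 3 against 3 libraries cannot go below 0.1, so none was used. Figures were drawn with matplotlib 3.10.9.

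The members and lists were chosen with earlier results of these data known. All 38 members may be named; every library is given for isozymes, for fixed committed or regulated steps (Pkm, Ldha, Pdk1, G6pdx, Pcx, Cs, Idh3a and Ogdh) and for other called members with a log2 change of at least 0.3, and also for Rpe and Eno1, chosen after their values were seen. Of other lists up to 4 genes with the smallest p are named. Beyond the rule are Ldhd, Pdk2, Pdk3, Rrm2, 3 hypoxia targets, 4 regulators, 3 genes of the TCA list that fell and some markers. The added hypoxia targets and regulators all rose, and most genes of those lists that fell are not named. The result of 1 gene of the lists is not reported here.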

Additional observations from a re-analysis of the deposited data

How the results depend on the processing

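No member changed direction while passing under any of the 15 alternatives, all planned. RLE scaling and limma-voom left all 38 member results on their side of the threshold. Hk2, Hk3, Aldoc, G6pdx, Tkt, Pdk1 and Pcx passed under all 15. With an assumed spread of 0.1, 3 glycolytic members and 2 of pyruvate entry and TCA were higher, and over all genes 1222 were higher and 663 lower; that setting fixes a wider spread than these libraries show. DESeq2 called 1675 genes lower, against 2533, and the cause was not tested. With upper-quartile scaling 1 pentose phosphate member was called lower, and with each library left out 0 to 1. With each library left out 13 glycolytic, 2 to 3 pentose phosphate and 6 to 9 other members were higher. No pairing by replicate number was seen: deviations from group means of same-numbered libraries correlated at 0.00402, -0.00609 and -0.0137, and 1 of 6 libraries correlated best with its own number. That cannot exclude a shared day or source of cells, which the labels do not give. With the replicate number as a block 13 glycolytic, 3 pentose phosphate and 8 other members were higher and 5259 genes passed, against 5385, and it changed no call of a member. Depth limits Pcx, Aldoc, Rpia and Pfkm most, the members with the fewest reads.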

Other observations

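Copies and neighbours of the members were read as well. Among pseudogenes and retrogenes named for a member, Pgam1-ps2 had 182, 176 and 135 reads with the knockout label and 126, 115 and 140 with the other, and Eno1b, a retrogene of enolase, had 86, 100 and 96 against 86, 69 and 90. AC160637.1, a transcript to be checked that lies within Pkm on the same strand, had 1.12% of the mean count of Pkm and rose by 0.68 on the log2 scale, against 0.18 for Pkm itself. Kansl1l, on the other strand beside Rpe, rose by 0.32, while Rpe had a log2 difference of -0.12. Pitrm1, beside Pfkp, had 43.9% of its mean count and rose by 0.14.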
